A study of Mus musculus with 6 samples.

Results

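Large domains of 1 to 2 Mb are the stretches of mouse chromosome between successive contact boundaries that lie 1 to 2 Mb apart on a Hi-C map of embryonic stem (ES) cells. A Hi-C map counts how often each pair of genome segments, here bins of 50 kb, was ligated together in crosslinked nuclei. To find the domains, all 6 contact tables were scaled to equal totals and summed, using autosomal bins with at least 20 contacts in every library. The summed map was balanced for bin coverage on each chromosome. An insulation score was then taken at every bin, which is the log2 of the mean contact across that bin in a 500 kb square over the chromosome mean. A boundary is a local minimum of that score with a prominence of at least 0.2. The rule gave 2370 boundaries and 2351 stretches, of which 900 were 1 to 2 Mb long. They are the large domains described here. Length is the distance between the edge bins, and the coordinates given for a domain are those of the bins between its edges. The other stretches were 1058 of 550 to 950 kb, 313 of 200 to 500 kb, 75 of over 2 Mb and 5 of under 200 kb. The domains were thus chosen by contact in the summed map of both cell lines, so their length, the depth of their edges and the contrast between inside and outside are descriptions. No comparison of the cell lines entered the choice. Rows missing from the tables, whose share differs between the libraries as given below, did enter the summed map as absent contacts.

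The Hi-C data come from 3 Del8 and 3 WT libraries of mouse ES cells of strain 129. Del8 cells have the genotype label GFP-CTCF-Del8, a CTCF protein without zinc finger 8 and fused to green fluorescent protein. WT cells have the genotype label wild type. The design text speaks of cells with GFP-CTCF, so whether the WT cells carry the same tag cannot be told from the labels. The libraries are biological replicates, prepared with MboI and ligation in nuclei, and the labels do not say whether each line is 1 clone.

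CTCF is a DNA-binding protein with a row of zinc fingers, of which the central ones read the core of its motif and the others add contacts to flanking bases. In mammalian cells it halts the extrusion of chromatin loops by cohesin, so its sites lie at many domain boundaries and at the anchors of loops. Domains between such boundaries bring enhancers and promoters of the same stretch together more often than those of neighbouring stretches. Long domains often hold developmental genes with distant enhancers and stretches poor in genes.

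The tables held 66266759, 46925260 and 38088173 contacts in Del8 replicates 1, 2 and 3, against 24038030, 24512722 and 36233407 in WT replicates 1, 2 and 3. Each table lists a bin pair once, under its lower bin. For many bins the tables used here list no row under that bin, although the same bin appears as the upper bin of other pairs at the usual level. Such bins made up 0.699%, 2.82% and 11.8% of the 45645 bins of the rule in the Del8 libraries, against 36.8%, 36.9% and 3.42% in the WT libraries. Within large domains the shares were 0.529%, 2.41% and 12.04% in Del8 and 40.4%, 40.6% and 3.02% in WT, and the cause was not tested. All values below therefore use the 27673 bins (60.6%) listed in all 6 libraries, unless stated otherwise. A domain was measured when at least 50% of its inner bins were listed, which left 513 of the 900 large domains. The other 387 include 106 with no such bin. Depth and listing both differ between the lines, and their part in the results was not tested beyond the values given with single libraries left out.

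The median length of the 900 domains was 1200 kb, and together they covered 48.9% of the bins of the rule. The limits of the class fall in a continuous range of lengths, with 95 stretches of 1000 kb just inside against 124 of 950 kb just outside, and 6 of 2000 kb just inside against 5 of 2050 kb just outside. Large domains were found on all 19 autosomes, from 3.35 per 10 Mb on chromosome 12 to 4.47 per 10 Mb on chromosome 6. They held 8155 starts of protein-coding genes, or 7.25 per Mb, against 9.40 per Mb in stretches of 550 to 950 kb and 14.2 per Mb in stretches of 200 to 500 kb. No gene start lay in 97 (10.8%) of them, while the fullest held 91.

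The 1452 edge bins of large domains were richer in genes than their insides. An edge bin held 0.774 gene starts on average, against 0.362 for a bin inside a large domain and 0.438 for all bins of the rule. No gene start lay in 54.1% of edge bins, against 75.5% of inner bins. Of the edges, 1065 (73.3%) also appeared within 50 kb on a map summed from the 3 libraries with under 5% unlisted bins (Del8 replicates 1 and 2 and WT replicate 3). Both edges did so for 518 (57.6%) of the domains. Part of the edges lie where listed bins begin or end: 116 had mostly unlisted bins to the left and listed bins to the right, and 32 the reverse.

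Promoters at the edges are shown to place a CTCF-like stretch of letters beside the measured edges. The letters searched were CNAGGNGGC, which lie within the CTCF core motif, on both strands of RefSeq promoter windows (GRCm38.p6) that run from 250 bases before to 50 after each gene's start. They occurred in 140 of 1455 promoters in edge bins (9.62%), in 1089 of 13084 promoters inside large domains (8.32%) and in 2634 of 31396 autosomal promoters (8.39%). Among edges with a score in all libraries, 98 held such a promoter, of which 54 (55.1%) rose in insulation score in Del8, 13 (13.3%) fell and the rest did not pass the limma test. Over all boundaries tested 52.8% rose and 13.7% fell, so edges with these letters moved about as often as boundaries in general. The 4 promoters shown lie at the edge of this kind with the largest fall and at 3 with large rises whose gene has a known role, with the letters in capitals. Ccdc66 (a protein of microtubules and cilia) lies on the minus strand at chr14:27508411-27508710, Usp35 (a deubiquitinating enzyme) on the minus strand at chr7:97332060-97332359, Srsf4 (a splicing factor) on the plus strand at chr4:131873810-131874109, and Gsto1 (a glutathione transferase) on the plus strand at chr19:47854723-47855022.
Ccdc66: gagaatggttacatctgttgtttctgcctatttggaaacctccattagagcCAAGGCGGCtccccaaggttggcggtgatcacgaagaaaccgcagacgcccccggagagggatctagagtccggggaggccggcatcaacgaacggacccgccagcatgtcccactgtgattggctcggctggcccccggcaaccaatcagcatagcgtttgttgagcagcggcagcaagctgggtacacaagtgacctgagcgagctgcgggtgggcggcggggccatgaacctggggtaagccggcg
Usp35: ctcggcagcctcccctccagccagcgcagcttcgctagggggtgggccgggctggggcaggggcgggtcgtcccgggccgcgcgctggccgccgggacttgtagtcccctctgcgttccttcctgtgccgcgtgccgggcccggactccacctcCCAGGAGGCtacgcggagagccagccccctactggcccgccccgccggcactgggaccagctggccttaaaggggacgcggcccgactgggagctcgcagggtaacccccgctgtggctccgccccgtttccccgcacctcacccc
Srsf4: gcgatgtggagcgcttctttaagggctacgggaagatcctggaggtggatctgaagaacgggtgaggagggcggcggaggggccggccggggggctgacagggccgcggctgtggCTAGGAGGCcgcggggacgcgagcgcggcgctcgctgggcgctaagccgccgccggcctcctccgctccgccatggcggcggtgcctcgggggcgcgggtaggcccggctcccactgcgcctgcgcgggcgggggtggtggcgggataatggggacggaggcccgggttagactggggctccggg
Gsto1: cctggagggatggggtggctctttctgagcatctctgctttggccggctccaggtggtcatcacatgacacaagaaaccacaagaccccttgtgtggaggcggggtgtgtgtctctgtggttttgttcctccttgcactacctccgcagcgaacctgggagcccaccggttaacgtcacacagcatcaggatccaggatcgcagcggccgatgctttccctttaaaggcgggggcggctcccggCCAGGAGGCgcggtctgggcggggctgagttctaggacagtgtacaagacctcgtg
The mean insulation score at the Ccdc66 edge was -0.87 in Del8 and -0.46 in WT, a fall of 0.41 (limma, adjusted p = 2.39e-06). At the Usp35 edge it was -0.59 in Del8 and -1.15 in WT, a rise of 0.56 (adjusted p = 5.75e-06). At the Srsf4 edge it was -0.39 in Del8 and -0.93 in WT (adjusted p = 1.73e-06), and at the Gsto1 edge -0.38 in Del8 and -0.90 in WT (adjusted p = 7.52e-07). A match is a run of letters and not a measured CTCF site. Of the 10 edges with the largest changes, described further on, that of Ccdc66 alone had a promoter with these letters.

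The first comparison asked whether contact within large domains differed between Del8 and WT cells. Relative to expected, contact inside large domains was lower, and contact across their edges higher, in all 3 Del8 libraries than in all 3 WT libraries, by small amounts. Contact is given as observed over expected, where the expected value follows from the coverage of the bins and that library's mean contact at each distance, chromosome by chromosome. Pairs within domains and pairs across edges both enter that mean. More contact across edges therefore lowers the value within, and these differences are not separate results. The mean log2 of observed over expected contact within the 513 measured domains was 0.0608, 0.0624 and 0.0631 in Del8 replicates 1, 2 and 3, against 0.0822, 0.0835 and 0.0874 in WT replicates 1, 2 and 3. All Del8 libraries lay below all WT libraries. The difference was -0.02 on the log2 scale, or 0.985-fold (two-sided exact permutation p = 0.10, the smallest that 3 against 3 libraries allow).

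Contact between a large domain and the next stretch on either side, up to 1 Mb apart, was below expected in both lines and less so in Del8. Over 511 domains its mean log2 was -0.387, -0.381 and -0.393 in the Del8 libraries, against -0.510, -0.509 and -0.470 in the WT libraries. The groups did not overlap, and the difference of 0.11 amounts to 1.08-fold more contact across the edges in Del8 (exact permutation p = 0.10). WT replicate 3, the WT library with few unlisted bins, lay nearest to Del8 in this measure.

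**Figure D1:**
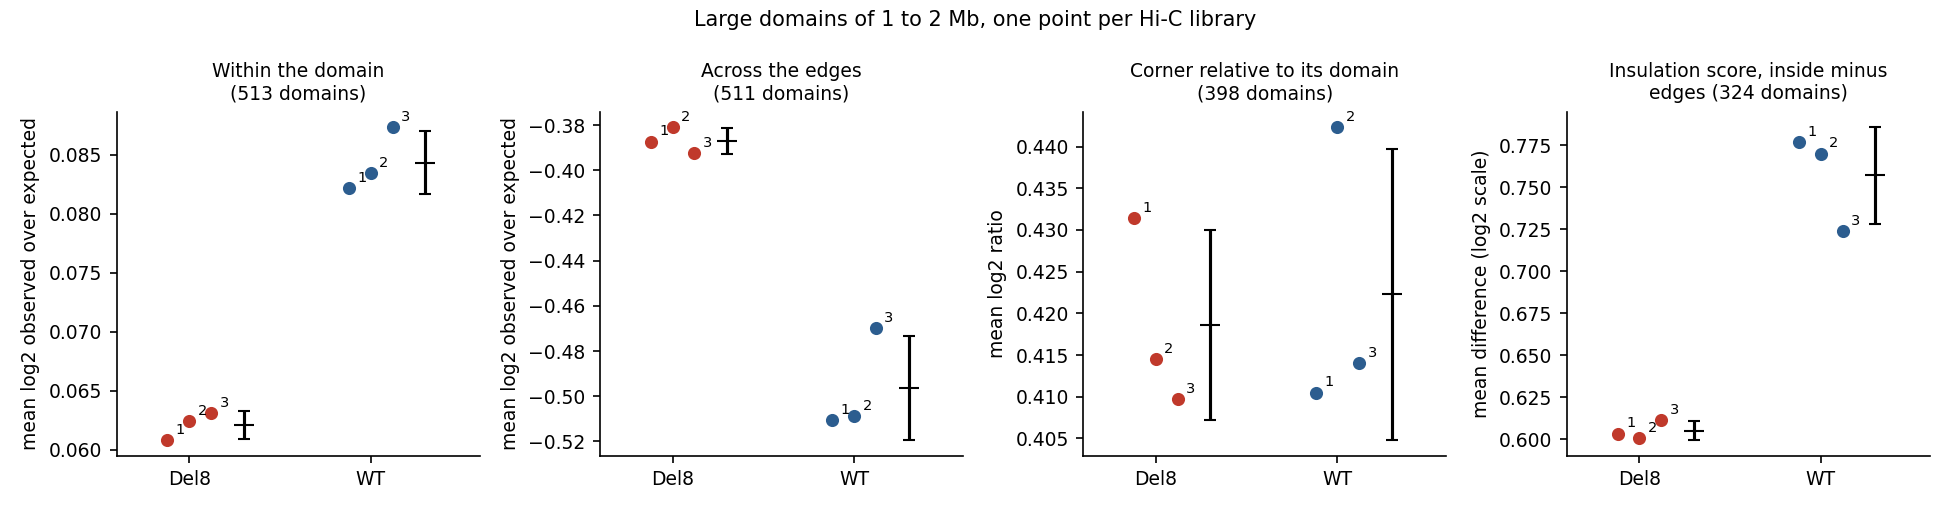
Mean values over large domains in each Hi-C library, with Del8 left of WT in every panel: log2 observed over expected contact within the domain and across its edges, log2 contact of the domain's corner relative to the domain, and insulation score inside minus at the edges. Points are libraries with their replicate numbers, bars the mean and SD of 3 libraries. Del8 lies apart from WT in all panels except that of the corner.

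An averaged map of large domains showed the same directions by position. It averaged over bin pairs and did not require 50% of the inner bins to be listed, so it was not limited to the 513 measured domains. When each domain was rescaled to 1 length with a flank of 50% of its length on each side, the inside averaged a log2 observed over expected of 0.23 in Del8 and 0.29 in WT. The block between the domain and its left flank averaged -0.12 in Del8 and -0.17 in WT, and that with its right flank -0.07 in Del8 and -0.11 in WT. Contact between the flanks, which passes over the domain, was 0.06 in Del8 and 0.07 in WT. In this map the loss inside was deepest toward the corner where the ends of the domain meet, and gain was spread along both edges. The corner measured domain by domain, given next, showed no such extra loss on the same bins, those listed in all 6 libraries. That measure was limited to 398 domains and averaged their log2 values, whereas the map averaged over bin pairs.

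**Figure D2:**
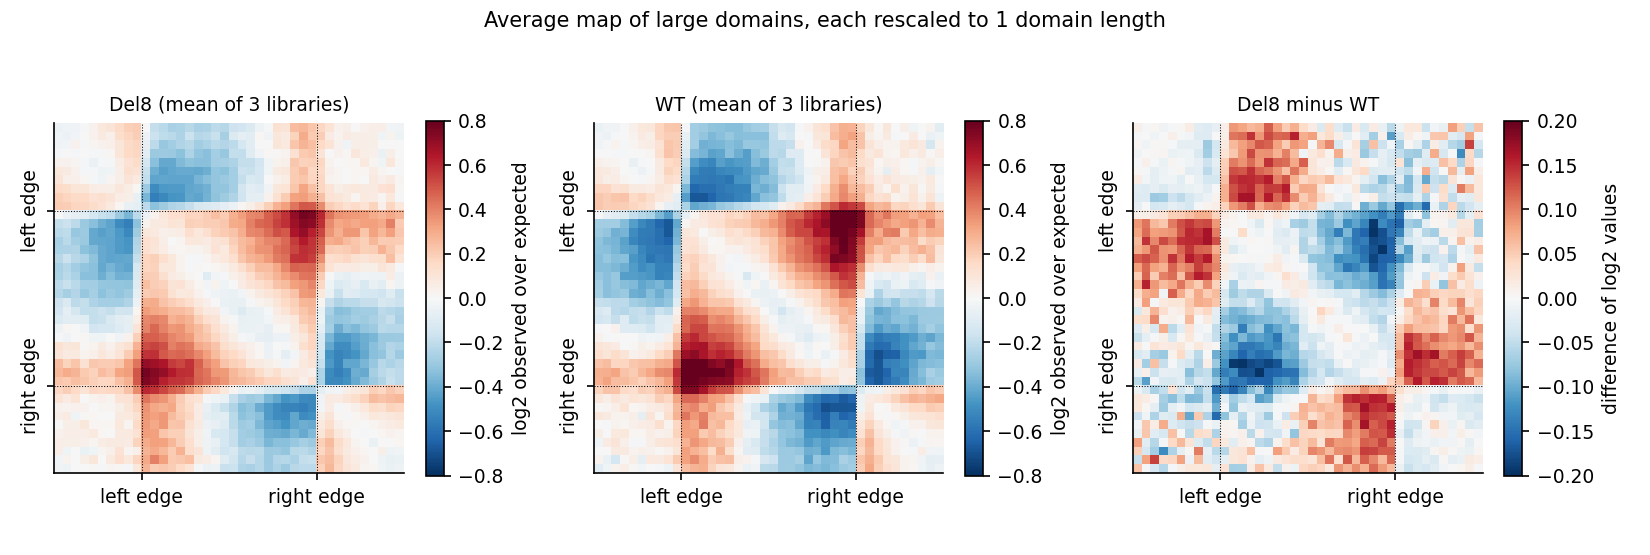
Average contact map of large domains rescaled to 1 length, in Del8, in WT and as Del8 minus WT; both axes run along the chromosome from the left flank to the right flank, and colours give log2 observed over expected contact or its difference. The inside of the domain is lower in Del8 (0.23 against 0.29 in WT) and the blocks with the flanks are higher. Domains with under 50% of their inner bins listed are included.

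Contact at the corner itself, between the 150 kb inside each of the edges, was well above expected in both lines. Relative to the rest of its domain, its mean log2 over 398 domains was 0.431, 0.415 and 0.410 in Del8 and 0.410, 0.442 and 0.414 in WT. The groups overlapped and differed by -0.0037 (exact permutation p = 0.7). On the bins listed in WT replicate 3 and the 3 Del8 libraries, without WT replicates 1 and 2, the corner difference was -0.04 and the single WT library lay outside the Del8 range. In absolute terms the corner was 1.34 times expected in Del8 and 1.37 times in WT, without overlap.

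By distance, contact gained across the edges at every range. Here contact is balanced contact over the chromosome mean, with no correction for distance. Pairs 500 to 950 kb apart that cross an edge had a log2 contact of 3.330, 3.327 and 3.329 in Del8 and 3.069, 3.077 and 3.113 in WT, a difference of 0.24 or 1.18-fold. The differences at 50 to 200 kb, 250 to 450 kb and 1 Mb or more were 0.13, 0.21 and 0.20. In all 4 ranges every Del8 library exceeded every WT library (exact permutation p = 0.1, also after Benjamini-Hochberg adjustment over the 4 ranges). Pairs inside the domains also shifted at some ranges, as given next. Inside minus across differed between Del8 and WT by -0.15, -0.17, -0.17 and -0.16 from the shortest to the longest range, without overlap (exact permutation p = 0.1).

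Inside large domains the change depended on distance. Pairs 500 to 950 kb apart had a log2 contact of 4.151, 4.132 and 4.153 in Del8, against 4.074, 4.078 and 4.063 in WT, a difference of 0.07 without overlap (exact permutation p = 0.1, adjusted p = 0.2). Pairs 1 Mb or more apart differed by 0.04, also without overlap, although the difference was -0.02 on the bins listed in 4 libraries without WT replicates 1 and 2. At 50 to 200 kb the difference was -0.016 and at 250 to 450 kb 0.033, and the groups overlapped in both ranges (adjusted p = 1 and 0.4). Without WT replicate 3 the difference at 50 to 200 kb was -0.0794 with no overlap, and without WT replicates 1 and 2 it was 0.111. Balanced contact inside at 500 to 950 kb was thus somewhat higher in Del8 while observed over expected contact within the domain was lower, and the scales differ in that the second divides by the library's own mean contact at each distance.

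**Figure D3:**
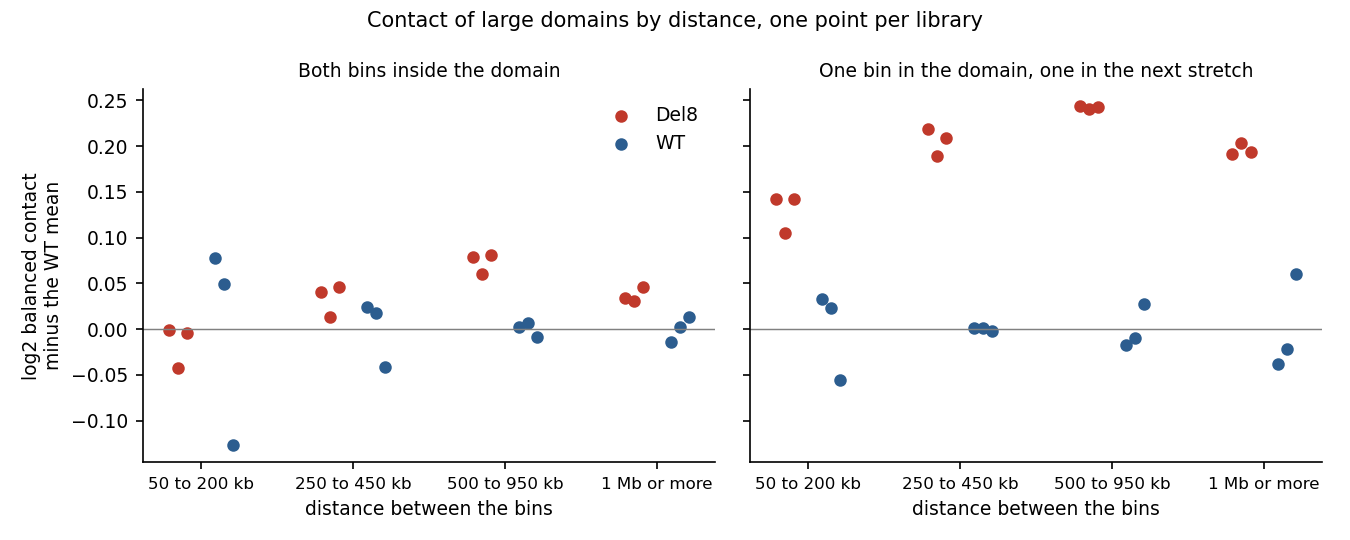
Contact of large domains at 4 ranges of distance (x axis), as log2 balanced contact minus the WT mean (y axis), for pairs inside the domain and for pairs across an edge; points are libraries, Del8 left of WT. All Del8 points lie above all WT points across the edges, with 0.24 at 500 to 950 kb, while inside they overlap at 50 to 200 kb and 250 to 450 kb.

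The share of a domain's contacts on its chromosome that stayed within the domain averaged 37.6%, 36.4% and 37.6% in Del8 and 39.1%, 38.4% and 34.3% in WT. The groups overlapped, with WT replicate 3 below all Del8 libraries and WT replicates 1 and 2 above them (exact permutation p = 1). This share has no correction for distance and was 2.96 percentage points higher in Del8 without WT replicates 1 and 2.

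Of the 513 domains tested with edgeR on raw contact counts, 230 (44.8%) fell in Del8, 59 (11.5%) rose and 224 did not pass an adjusted p of 0.05. Over all 1503 stretches of 200 kb to 2 Mb tested, 38.4% fell and 8.92% rose, 47.3% in all. Without regard to the test, all 3 Del8 libraries lay below all 3 WT libraries in 258 large domains and above them in 78, where over all stretches these shares were 46.4% and 13.6%, or 59.9% in all. The median change over large domains was 0.986-fold, with log2 changes between -0.15 and 0.11, and the median over all stretches was 0.982-fold. Domains that fell had a median of 0.963-fold and those that rose 1.03-fold. With DESeq2 and the same offsets, 147 fell and 29 rose, and with TMM scaling and no correction for distance or coverage 34 fell and 49 rose, so the split between falls and rises changed with the scaling. Under TMM 29 of the 230 falls and 22 of the 59 rises were kept, and 4 of the 230 falls were called as rises.

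The lower contact in Del8 was also seen in shorter stretches, where the difference was somewhat larger on average. Contact within stretches of 550 to 950 kb averaged a log2 of 0.0862 in Del8 and 0.116 in WT. Large minus these middle domains was -0.0255, -0.0229 and -0.0239 in Del8 and -0.0345, -0.0322 and -0.0283 in WT, without overlap (exact permutation p = 0.10, difference 0.0075). The groups overlapped when only domains with both edges on the map of the 3 libraries with few unlisted bins were used (0.0044), and on the bins listed in 4 libraries without WT replicates 1 and 2 the difference was -0.0005269. Contact within stretches of 200 to 500 kb averaged a log2 of 0.18 in Del8 and 0.22 in WT. Large minus small domains was -0.124, -0.112 and -0.122 in Del8 and -0.138, -0.140 and -0.120 in WT, which overlap (exact permutation p = 0.3, difference 0.0131). By edgeR, 44.8% of large, 38.0% of middle and 25.9% of small domains fell, and the number of contacts behind a domain also grows with its size. Among large domains, the mean difference was -0.0215 for the 395 under 1.5 Mb and -0.0248 for the 118 from 1.5 to 2 Mb, each without overlap between the lines.

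Large domains poor in genes lost more contact than those rich in genes. In the 253 domains below the median of 6.67 gene starts per Mb, the mean log2 observed over expected was 0.122, 0.127 and 0.125 in Del8 and 0.157, 0.157 and 0.167 in WT. In the 260 domains at or above that median it was 0.0014, -0.0007 and 0.0027 in Del8 and 0.0092, 0.0115 and 0.0103 in WT. Gene-poor domains thus stood further above expected in both lines, and the gap between the kinds of domain was smaller in Del8. That gap was 0.120, 0.128 and 0.122 in the Del8 libraries and 0.148, 0.146 and 0.156 in the WT libraries, a difference of -0.03 without overlap (exact permutation p = 0.10, computed after the pattern was seen).

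Sorted by gene density into 4 groups of about equal size, 77 of 127 domains fell and 3 rose in the group poorest in genes, and 65 of 126 fell and 3 rose in the next. In the third group 49 of 131 fell and 19 rose, and in the group richest in genes 39 of 129 fell and 34 rose, by edgeR at an adjusted p of 0.05. Domains with a rise were thus mostly gene-rich. Listing moves with gene density: the domains measured on 6 libraries held 9.81 gene starts per Mb and the 315 that could be measured only without WT replicates 1 and 2 held 4.26 per Mb, and the part of this in the result was not tested.

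**Figure D4:**
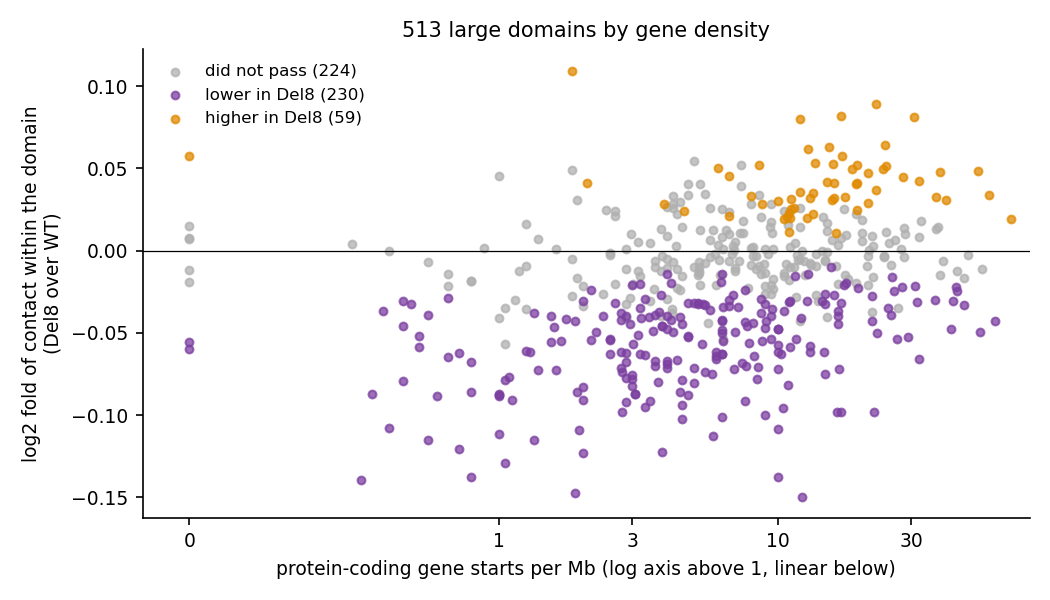
Change of contact within each of 513 large domains (y axis, log2 Del8 over WT from edgeR) against its protein-coding gene starts per Mb (x axis, logarithmic above 1). Points are domains, coloured by the edgeR call: 230 lower in Del8, 59 higher in Del8 and 224 that did not pass, with rises concentrated on the gene-rich side.

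Those 315 domains were compared between the 3 Del8 libraries and WT replicate 3 alone, on bins listed in these 4 libraries, which assumes that WT varies as Del8 does. Their mean log2 observed over expected contact was 0.163, 0.172 and 0.164 in Del8 and 0.207 in WT. Contact across their edges was -0.184, -0.184 and -0.189 in Del8 and -0.255 in WT. By edgeR 82 (26.0%) fell and 4 (1.27%) rose. In the same fit 33.1% of the other 513 large domains fell and 10.1% rose, and over all 2074 stretches tested 24.3% fell and 6.17% rose, so falls were about as frequent as over all stretches. The single WT library lay above all Del8 libraries within these domains and below them across the edges.

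The domain with the largest rise lies on chromosome 6 from 97800001 to 98900000 (mm10) and holds the starts of Mitf, the master transcription factor of melanocytes, and Gm765. Its observed over expected contact was 1.15, 1.17 and 1.17 in Del8 against 1.07, 1.07 and 1.08 in WT, a log2 change of 0.11 ± 0.02 (SE, edgeR adjusted p = 5.87e-05). All Del8 libraries lay above all WT libraries. It stands alone among the 5 largest rises in being poor in genes.

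The domain with the next largest rise, on chromosome 5 from 134150001 to 135350000, holds 27 genes, many of them in the counterpart of the human Williams-Beuren region, such as Gtf2i (a transcription factor), Limk1 (a kinase of the actin cytoskeleton) and Eln (elastin). Its contact was 1.01, 1.01 and 1.03 times expected in Del8 and 0.952, 0.963 and 0.953 times in WT, a log2 change of 0.09 (edgeR adjusted p = 2.48e-12). Next came the domain on chromosome 5 from 103950001 to 104900000, with Spp1, Dmp1, Ibsp, Mepe and Dspp, secreted proteins of bone and tooth matrix, at 1.13 times expected in Del8 and 1.07 in WT (adjusted p = 0.000535). These genes form a cluster of related matrix proteins. A domain of 37 genes on chromosome 8 from 104100001 to 105300000, with Cdh5 (the cadherin of blood vessel lining) and the carboxylesterase genes of the Ces2 family, was at 1.03 times expected in Del8 and 0.971 in WT (adjusted p = 5.10e-12). The domain on chromosome 13 from 55750001 to 56750000, with the developmental transcription factors Pitx1 and Neurog1 and the signal transducer Smad5, was at 0.904 in Del8 and 0.855 in WT (adjusted p = 8.79e-10). In all 5 the groups did not overlap.

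The largest fall was on chromosome 10 from 40550001 to 41700000, a domain of 14 genes including Wasf1 (an actin regulator) and Fig4 (a phosphoinositide phosphatase). Its contact was 0.876, 0.889 and 0.888 times expected in Del8 and 0.968, 0.990 and 0.981 times in WT, a log2 change of -0.15 ± 0.01 (SE, edgeR adjusted p = 8.09e-15). The domain on chromosome 4 from 53750001 to 55350000, with Tal2, Tmem38b and the zinc finger gene Zfp462, was at 1.06, 1.07 and 1.08 in Del8 and 1.19, 1.17 and 1.19 in WT, a change of -0.15 (adjusted p = 6.60e-14). Both groups lay well apart in these domains.

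The other 3 of the largest falls were each -0.14 on the log2 scale. They were the domain on chromosome 7 from 95150001 to 96950000 with Tenm4, a teneurin of cell adhesion (0.942 times expected in Del8 and 1.04 in WT), that on chromosome 2 from 4900001 to 5900000 with Camk1d, Optn and Mcm10 (1.05 in Del8 and 1.15 in WT), and that on chromosome 5 from 44300001 to 45400000 with Ldb2, a cofactor of LIM domain transcription factors (2.03 in Del8 and 2.23 in WT). The last was measured on 11 of 22 inner bins and stood furthest above expected in both lines. Of the 10 domains with the largest changes, those with Spp1, Wasf1 and Tenm4 do not have both edges on the map of the 3 libraries with few unlisted bins.

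The length and gene content of a domain are set by the rule and the annotation, and single domains at their extremes are given as examples. The longest tested domain, 2000 kb on chromosome 1 from 34350001 to 36300000 with 13 genes, was at 1.06 times expected in Del8 and 1.08 in WT (log2 -0.03, edgeR adjusted p = 2.34e-05, but 0.0615 with TMM scaling). The tested domain with most genes, 70 on chromosome 11 from 99000001 to 100300000, holds type I keratin and keratin-associated protein genes of skin and hair. It was at 1.19, 1.19 and 1.18 in Del8 and 1.19, 1.19 and 1.21 in WT, which overlap (adjusted p = 0.237). A domain with no gene start, on chromosome 8 from 41450001 to 43050000, was at 1.34 in Del8 and 1.39 in WT. It fell by a log2 change of -0.06 without overlap (edgeR adjusted p = 0.0138).

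Of 20 pluripotency genes listed for the study's cell type, 1 started in a large domain, Klf4, and 14 in shorter stretches. Klf4 is a transcription factor of naive pluripotency and the only gene start of its domain on chromosome 4 from 55400001 to 56700000. Contact there was 1.06, 1.06 and 1.07 times expected in Del8 and 1.15, 1.15 and 1.15 times in WT. It fell by 0.11 on the log2 scale, with all Del8 libraries below all WT libraries (edgeR adjusted p = 8.40e-13).

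Of 30 developmental transcription factor genes, 19 started in 18 large domains, of which 15 were tested: 10 fell, none rose and 5 did not pass the edgeR test, with a median log2 change of -0.04. Over all large domains 44.8% fell and 11.5% rose with a median of -0.02, and over all stretches 38.4% fell and 8.92% rose. In the density group of large domains poorest in genes 60.6% fell with a median of -0.04, and in the next 51.6% with -0.03. Several domains of the list were poor in genes, such as those of Sox9 (1.25 gene starts per Mb), Sox11 (0.833) and Tshz1 (2), while that of Sox1 had 8.33. The part of gene density in the list's share was not tested. The domain of Pax6, a regulator of eye and brain development, was at 1.06, 1.05 and 1.05 in Del8 and 1.14, 1.14 and 1.11 in WT (log2 -0.10, adjusted p = 5.52e-05). The domains of Sox5 (-0.09), Eomes (-0.07), Sox11 (-0.06), Sox6 (-0.06), Tshz3 (-0.04), Sall1 (-0.04), Tshz1 (-0.03) and Sall3 (-0.03) also fell. In the Tshz1 domain the Del8 and WT libraries overlapped, and with TMM scaling and no offsets the Tshz1 and Tshz3 domains changed by 0.0131 and 0.0023, the opposite sign.

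The domain of Sox9, the regulator of cartilage and testis formation known for distant enhancers, was at 1.18, 1.19 and 1.18 in Del8 and 1.217, 1.196 and 1.223 in WT. The groups did not overlap, but the change of -0.04 fell just short of the threshold (edgeR adjusted p = 0.05002). The domain shared by Irx3 and Irx5 had a log2 change of -0.02, that of Sox1 -0.0033, that of Lmo4 -0.02 and that of Tbx15 0.03, and none of them passed the test.

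Of 30 long neuronal adhesion and synapse genes, 10 started in large domains, but only the domain of Nrxn3, a presynaptic adhesion protein, had enough listed bins. It was at 1.76, 1.75 and 1.72 in Del8 and 1.63, 1.69 and 1.73 in WT and did not pass (adjusted p = 0.11). Of 12 ligands and receptors with distant enhancers, 7 started in large domains and 3 of their domains were tested. The domain of Bmp4, a bone morphogenetic protein of early embryos, was at 1.08, 1.10 and 1.08 in Del8 and 1.197, 1.190 and 1.179 in WT, and it fell by 0.13 (adjusted p = 3.53e-09). The domain of Wnt6 and Ihh and that of Nog had log2 changes of 0.01 and -0.0050 and did not pass.

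Insulation at the edges of large domains was weaker in Del8. A higher insulation score means more contact across the bin. Over the 324 domains with scores at both edges and inside, the mean edge score was -0.521, -0.519 and -0.526 in Del8 and -0.664, -0.655 and -0.617 in WT. The score of bins at least 300 kb from both edges was 0.0822, 0.0813 and 0.0850 in Del8 and 0.113, 0.115 and 0.107 in WT. Inside minus edges was thus 0.603, 0.601 and 0.611 in Del8 and 0.777, 0.770 and 0.724 in WT, a difference of -0.15 without overlap (exact permutation p = 0.10). Large domains stood out less from their surroundings in every Del8 library.

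Fewer inner dips of the score were found in Del8. Local minima with a prominence of at least 0.1 inside large domains numbered 4.68, 4.39 and 4.62 per 10 Mb in Del8 and 6.93, 6.65 and 5.71 per 10 Mb in WT (exact permutation p = 0.10). The groups did not overlap. Depth also differed, with all WT libraries shallower than all Del8 libraries. The least deep WT library had most dips among WT, while the deepest Del8 library had most among Del8. The part of depth was not tested.

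Of the 723 edges with a score in all libraries, 403 (55.7%) rose, 87 (12.03%) fell and 233 did not pass by limma at an adjusted p of 0.05. Over all 1264 boundaries tested, 52.8% rose and 13.7% fell, 66.5% in all. Without regard to the test, 409 edges lay higher in all Del8 than in all WT libraries and 101 lower, where over all boundaries these shares were 53.2% and 15.9%, or 69.1% in all. The median change was 0.12 at edges of large domains and 0.08 at the other 541 boundaries. After the median over boundaries was subtracted from each library, which removes the common shift of 0.11, 240 edges rose and 219 fell.

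Both edges could be scored in 327 domains. Both rose in 94, 1 rose and the other did not pass in 133, and 1 rose while the other fell in 36. In 29 neither passed, in 29 1 fell and the other did not pass, and in 6 both fell. Among the domains whose edges both rose, contact within fell by edgeR in 63 (67.0%) and rose in 8 (8.51%), against 167 (51.1%) and 47 (14.4%) of all 327, and 38.4% and 8.92% of all stretches tested. Whether these shares differ was not tested, and both measures come from the same libraries. They are also tied by construction, since pairs across edges enter the expected contact by which contact within is divided.

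The edge with the largest rise lies on chromosome 6 from 143200001 to 143250000, between a domain of 1100 kb and the 1750 kb domain of Sox5, and holds no gene start. Its score was -0.55, -0.49 and -0.55 in Del8 and -1.39, -1.40 and -1.32 in WT. All Del8 libraries lay far above all WT libraries, with a difference of 0.84 ± 0.04 (SE, limma adjusted p = 6.10e-08), or 1.79-fold more contact across the edge.

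The edge on chromosome 17 from 66500001 to 66550000, with the start of Rab12 (a small GTPase of membrane traffic), was at -0.40 in Del8 and -1.15 in WT, a difference of 0.75. On chromosome 10 from 126850001 to 126900000 the mean was -0.55 in Del8 and -1.30 in WT (difference 0.75). On chromosome 4 from 141050001 to 141100000, with Crocc (rootletin, a protein of the ciliary rootlet), Necap2 and Spata21, it was -0.40 in Del8 and -1.06 in WT (difference 0.66). All of these rose without overlap by limma, as did the edge on chromosome 11 from 104250001 to 104300000 (-0.21 in Del8 and -0.87 in WT). The edges on chromosomes 10 and 11 are not on the map of the 3 libraries with few unlisted bins.

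The edge with the largest fall, on chromosome 1 from 179800001 to 179850000, holds the start of Ahctf1, a nuclear pore protein. Its score was -0.88, -0.81 and -0.89 in Del8 and -0.48, -0.38 and -0.36 in WT, a difference of -0.45 ± 0.04 (SE, limma adjusted p = 3.06e-06). At this bin the insulation was stronger in every Del8 library. At 350 kb to the left the order was reversed, with -0.39, -0.30 and -0.36 in Del8 and -0.83, -0.65 and -0.58 in WT. The lowest score plotted around the edge lay there in every WT library, and 50 kb to the right of the edge bin in every Del8 library. The next falls were at Ccdc66 on chromosome 14 from 27500001 to 27550000 (-0.87 in Del8 and -0.46 in WT), Syt2, a synaptic vesicle calcium sensor, on chromosome 1 from 134600001 to 134650000 (-0.64 in Del8 and -0.27 in WT), Ropn1 on chromosome 16 from 34600001 to 34650000 (-0.24 in Del8 and 0.13 in WT) and Gorasp1 and Ttc21a on chromosome 9 from 119900001 to 119950000 (-0.69 in Del8 and -0.34 in WT). All 5 are on the map of the 3 libraries with few unlisted bins and none overlapped between the lines.

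**Figure D5:**
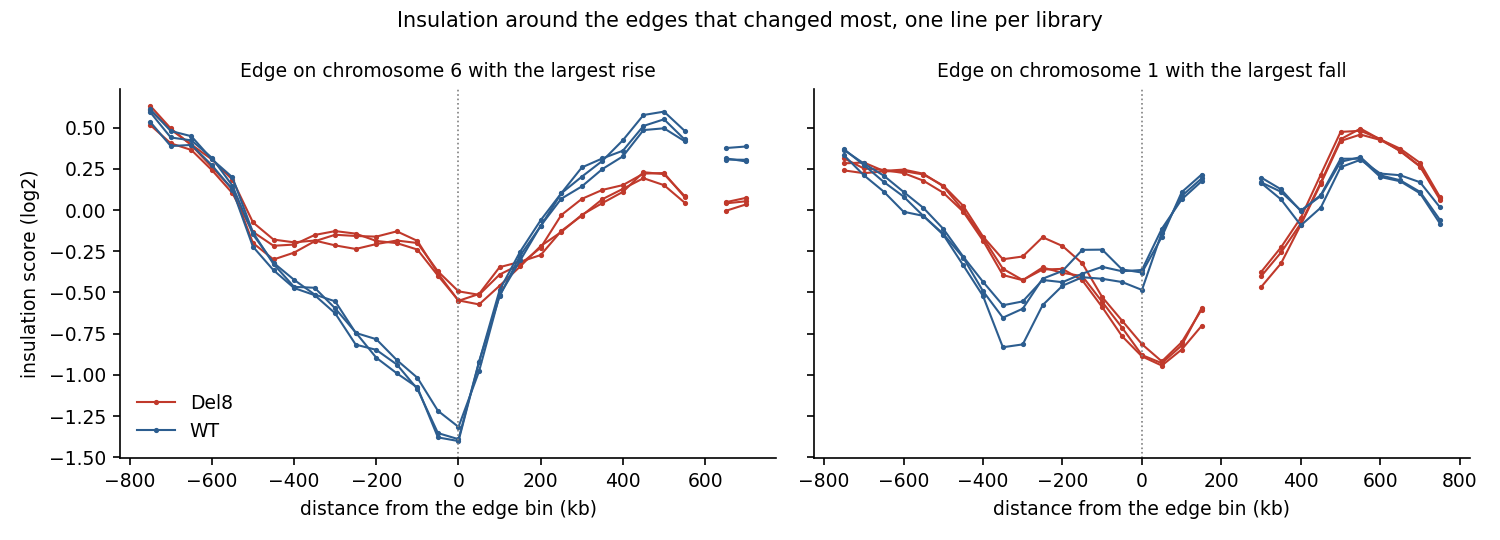
Insulation score (log2, y axis) against distance from the edge bin in kb (x axis) at the edge of a large domain with the largest rise (chromosome 6) and that with the largest fall (chromosome 1) in Del8; lines are libraries, with gaps where a bin has no score. At the edge on chromosome 6 the Del8 lines stay near -0.53 where the WT lines reach -1.37, and at that on chromosome 1 they lie at -0.86 where the WT lines lie at -0.41. At 350 kb to the left of the edge on chromosome 1, the WT lines lie below the Del8 lines.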

How the data were processed

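Hi-C contacts were measured in 3 Del8 and 3 WT libraries. The authors deposited raw contact counts per pair of 50 kb bins, 1 table a library. The build is mm10, per the submitters' processing notes. Which aligner and read filters were used was not given in the sources used here. Domains, their members and the gene lists were chosen with earlier results of these data known. Each library was balanced per chromosome by iterative correction without within-bin counts. Domains were tested with edgeR 4.0.16 (quasi-likelihood test) on the raw counts of domains with a mean count of at least 10, with offsets from the balancing weights and the mean contact at each distance. Insulation scores were compared with limma 3.58.1, and p-values were adjusted by Benjamini-Hochberg over all stretches or boundaries tested. Values over all large domains were compared by exact permutation of libraries. The p-values measure the spread between these libraries. Counts of the lowest measured domain ranged from 898 contacts in WT replicate 2 to 1861 in Del8 replicate 1, so counting error alone is not small beside the smallest changes given for single domains. No pair of libraries agreed within counting noise (chi-square per degree of freedom at least 1.69). Pairs of Del8 libraries gave 1.69 to 2.17, and WT replicates 2 and 3 gave 2.03. WT replicate 1 gave 8.52 with WT replicate 2 and 10.3 with WT replicate 3. WT replicates 2 and 3 gave 5.64 to 7.98 with the Del8 libraries, and WT replicate 1 gave 14.8 to 22.8. By this value WT replicate 1 thus lay further from the other WT libraries than these lay from Del8. Simulated data with known changes were used as a test of both scripts.

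The bins intended before listing was known were those of the rule; bins without a row were then left out, and the first choice is kept among the alternatives. Domains named are the 5 largest rises and falls past the threshold without overlap, the longest, those with most and fewest genes, and up to 10 with a gene of the lists in list order; edges named are the 5 largest rises and falls. Sox5, Bmp4, Nrxn3 and other list genes outside that rule were named after their values were seen; 1 domain that the rule names is not reported here. Gene starts come from RefSeq, with the strand known for 79.6% of 20661 genes and the lower coordinate used for the others. Same-numbered libraries deviated from their group means with correlations of 0.12, -0.18 and -0.10, and libraries with unlike numbers with -0.11 to 0.20. With so few libraries these values cannot tell whether same-numbered libraries were prepared together. The main tests did not pair them. The alternatives were other bins, libraries left out, a prominence of 0.3, a replicate block, DESeq2 1.42.0, TMM scaling, limma on domains, no count filter, a 250 kb square, centring, medians and a genome-wide expected contact.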

Additional observations from a re-analysis of the deposited data

How the results depend on the processing

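The values over all large domains, the counts of calls and the named domains and edges were recomputed under each alternative. Leaving out 1 library at a time moved the difference within large domains between -0.0233 and -0.0207, across the edges between 0.102 and 0.123, at the corner between -0.0101 and 0.0063, in insulation inside minus edges between -0.168 and -0.142 and in inner dips per 10 Mb between -2.22 and -1.61. It gave 47 to 58 rises and 179 to 228 falls of domains, and 356 to 408 rises and 72 to 91 falls of edges. Large minus middle domains ranged from 0.0061 to 0.0092, large minus small from 0.0093 to 0.0195, contact inside at 50 to 200 kb from -0.0794 to 0.0230 and at 250 to 450 kb from 0.0125 to 0.0453, and the percentage points kept within from -1.53 to 0.899. Without WT 3 the groups no longer overlapped in large minus small, at 50 to 200 kb and in the share kept within, and without Del8 2 at 250 to 450 kb (0.0431).

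Without WT 1 and 2 the differences were 0.111 at 50 to 200 kb, 0.0747 at 250 to 450 kb and 2.96 points kept within, each with the lone WT library outside the Del8 range, and 38 domains rose. On the bins listed in 4 libraries without WT 1 and 2 they were 0.123, 0.0629 and 2.60, with -0.0165 at 1 Mb or more, -0.0419 at the corner and -0.0005269 for large minus middle, and 140 edges fell. With both edges on the map of the 3 libraries with few unlisted bins, large minus middle was 0.0044 with overlap. DESeq2 called 29 rises and 147 falls, all of them among those of edgeR; TMM without offsets called 34 falls; centring on the median of boundaries gave 240 rises and 219 falls of edges. Under TMM the longest domain on chromosome 1 had 0.0615, that of Tshz1 0.0131 and that of Tshz3 0.0023. With the replicate block 53 domains rose and 225 fell, and 395 edges rose and 83 fell; the smallest p within pairs is 0.25.

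The bins of the rule count missing rows as 0 contacts by construction, and so measure listing as much as contact. On them the differences were 3.79 within, -1.53 at the corner, -5.35 dips, 0.449 at 50 to 200 kb, 0.358 at 250 to 450 kb and -0.154 at 1 Mb or more inside, -0.0152 at 1 Mb or more across, 1.87 for gene-poor minus gene-rich and -0.0927 for large minus middle. No domain passed by edgeR and no edge by limma (0 rises and 0 falls each); at an unadjusted p under 0.05 there were 0 rises and 23 falls of domains and 132 rises and 29 falls of edges. Other tools were not run on these bins. Named log2 changes there were -0.53 for the Gtf2i domain, -0.18 (Spp1), 1.42 (Wasf1), 1.46 (Tal2), 1.41 (Camk1d), 1.43 (Ldb2), 1.40 (the longest), 0.0502 (no gene), 1.49 (Klf4), 0.95 (Pax6), 1.35 (Tshz3) and 1.4975 (Sox11), with 0.75 at the Ccdc66 edge and 9.67 at the Ropn1 edge. The same bins without WT 1 and 2 gave -0.0247 at the corner, -0.0060 for large minus middle, -0.497 dips, 0.110, 0.0548 and 0.0014 inside at 50 to 200 kb, 250 to 450 kb and 1 Mb or more, 2.64 points kept within, 0 rises and 0 falls of domains by edgeR (5 and 31 at an unadjusted p under 0.05), and 225 rises and 13 falls of edges.

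Of the recomputed values of named domains and edges, 410 kept their direction and side of the threshold, 51 lost the threshold, 8 gained it and 17 turned sign.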

Other observations

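Some large domains that lie side by side were picked out after their values were seen. The Klf4 domain on chromosome 4 begins where the domain of Tal2, Tmem38b and Zfp462, one of the 5 largest falls, ends, and contact within fell in both (log2 changes of -0.11 for Klf4 and -0.15 for Tal2, edgeR). The edge between them, on chromosome 4 from 55350001 to 55400000, holds the start of Rad23b, a protein of DNA repair, and its insulation score was -0.47, -0.48 and -0.45 in Del8 against -0.73, -0.75 and -0.67 in WT (limma adjusted p = 6.60e-05). All 3 Del8 libraries lay above all 3 WT libraries at this edge.

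The neighbours at the edge with the largest rise moved in opposite directions. The Sox5 domain on chromosome 6, with a single gene start, was at 1.03, 1.04 and 1.02 times expected in Del8 and 1.10, 1.08 and 1.10 times in WT (edgeR, log2 -0.09, adjusted p = 1.89e-11). The domain of 16 genes on its left, which holds Ldhb (lactate dehydrogenase B), Kcnj8 and Abcc9 (subunits of a potassium channel), was at 0.970, 0.976 and 0.974 in Del8 and 0.934, 0.940 and 0.922 in WT (log2 0.06, adjusted p = 8.50e-05).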
